A study of Mus musculus with 16 samples.

Results

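Gene expression was compared between night and late day in the submandibular gland, a salivary gland, of untreated mice. The comparison sets 2 libraries taken at ZT15 (10 pm) against 2 taken at ZT9 (4 pm), where ZT is zeitgeber time, the hours since lights on; these are 4 of the 10 RNA-seq libraries and of the 16 samples of the study. The libraries were chosen by the collection time and the absence of treatment in the labels; the comparison itself was picked with earlier results of these data known. All 4 libraries came from mice aged 6 to 8 weeks, labelled WT for genotype and none for treatment. Strain and sex are not given in the labels. The study's title concerns the circadian clock in the loss of salivary function after radiotherapy, and its other samples are glands at ZT3, glands 6 h and 24 h after 5 Gy of radiation, and CUT&Tag for Bmal1, Nr1d1 and Dbp, an assay that cuts chromatin around an antibody-bound protein. Nothing in the labels says that replicates were separate animals, so p-values measure the spread between these libraries.

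The circadian clock of mammalian cells is a loop of transcription. The activators Arntl (also called Bmal1) and Clock bind E-boxes and switch on the Period and Cryptochrome genes, whose proteins then repress them, and also the nuclear receptor Nr1d1, which represses Arntl at elements it shares with activating nuclear receptors. Dbp, Tef and Hlf, the PAR bZIP factors, carry the rhythm to D-box genes, against the repressor Nfil3. Mice are active at night, when they feed and salivate, and the submandibular gland then loads large amounts of secretory protein through the endoplasmic reticulum (ER).

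Start regions of some core clock genes that held a searched element are shown first. An element was the condition for showing them, so they need not be the genes with the widest differences. The element is in capitals, and the bases are read 5′ to 3′ on the gene's strand from RefSeq (GRCm38.p6). The searched letters were CACGTG for the E-box, TTATGTAA for the D-box and AAN followed by TAGGTCA for the receptor element; both strands were searched from 250 bases before to 50 after each start, and no overlap between motifs was removed. Of the core clock genes with a start in the table, 4 of 16 held an E-box, against 11.5% of all expressed genes and 7.15% of all 32851 windows; 2 of 16 held a D-box, against 0.685% and 0.938%. The receptor element was in 1 of 16, Arntl, against 0.197% and 0.219%. The list is made of clock genes, some of them known targets of the clock, so these counts describe the list. The E-box windows are those of all 4 genes, since they include one of the widest night-to-day differences (Ciart) and differences in both directions.
Ciart (chr3:95882247-95882364, minus strand, 3 E-boxes): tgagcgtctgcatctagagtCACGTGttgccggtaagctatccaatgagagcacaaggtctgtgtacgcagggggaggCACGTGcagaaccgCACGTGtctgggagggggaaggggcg
Cry1 (chr10:85185089-85185134, minus strand): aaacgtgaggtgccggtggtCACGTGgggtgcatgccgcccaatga
Per1 (chr11:69098763-69098808, plus strand): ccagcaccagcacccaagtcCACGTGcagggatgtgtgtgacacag
Bhlhe41 (chr6:145865548-145865593, minus strand): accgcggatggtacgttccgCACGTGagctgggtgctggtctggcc
Per3 (chr4:151044796-151044890, minus strand, 2 D-boxes): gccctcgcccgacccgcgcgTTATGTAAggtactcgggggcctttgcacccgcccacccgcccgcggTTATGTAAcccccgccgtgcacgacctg
Arntl (chr7:113207528-113207557, plus strand, receptor element just past the start): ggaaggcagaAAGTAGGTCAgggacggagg

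The 4 libraries also differed in transcripts of sex and of other tissues, and these values stand beside every result. ZT15 replicate 2 held Y-linked transcripts, at a mean over 4 genes of 21.1 FPKM (fragments scaled by transcript length and library total), with Xist at 0.0231; the other 3 libraries listed all 4 Y-linked genes at 0, with Xist at 24.9 to 27.1. The same library was set apart by immune, muscle and parotid transcripts: the 15 B cell markers summed to 710 FPKM against 12.01 to 13.5 in the other 3, the 16 T cell markers to 223 against 12.2 to 14.6, the 11 neutrophil markers to 268 against 3.002 to 9.77, the 11 skeletal muscle markers to 90.4 against 8.49 to 10.3, and Amy1, the parotid amylase, to 19203 against 12.8 to 1108. Some markers were at 0 elsewhere: Ms4a1 and Pax5 of B cells, Mpo and Ngp of neutrophils and Myh4 of muscle were listed at 0 in both ZT9 libraries and ZT15 replicate 1. Most B cell, T cell and muscle markers were not. In ZT9 replicates 1 and 2 and ZT15 replicate 1, 4, 5 and 5 of the 15 B cell markers were at 0. So were 1, 0 and 0 of the 16 T cell, 4, 4 and 3 of the 11 muscle and 6, 6 and 6 of the 11 neutrophil markers. ZT9 replicate 2 was low in some secretory products. The sublingual mucin Muc19 was 0.274 there against 2863, 2067 and 849 in ZT9 replicate 1 and the ZT15 libraries. Dcpp2, a demilune cell protein, was 4.40 against 33675, 22655 and 13146. ZT9 replicate 2 also had the highest adipocyte sum, 515 against 201 to 344. Markers of the labelled gland were abundant in all 4: the secretoglobin Scgb1b27 took 12.2% to 24.6% of the FPKM. FPKM summed to between 915701 and 1174465 per library, and 19195 to 21150 genes had a value. FPKM gives no read totals; relative depth, read from the steps of low FPKM values, was 1.16 to 1.61 times that of ZT9 replicate 1 in the other 3 libraries.

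**Figure D1:**
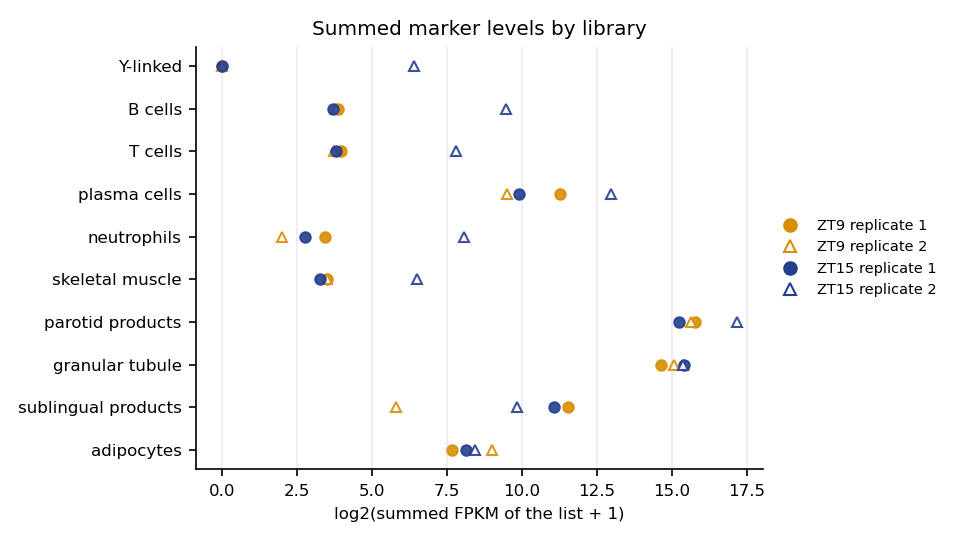
Summed FPKM of the kept markers of each list, plus 1, on a log2 scale, for the 4 libraries (1 point each; circles replicate 1, triangles replicate 2). ZT15 replicate 2 stands to the right for Y-linked, B cell, T cell, neutrophil and muscle markers, and ZT9 replicate 2 to the left for sublingual products, with a sum of 54.1 FPKM against 909 to 2968.

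Across 15161 genes with at least 1 FPKM in at least 2 of the 10 RNA libraries, none passed the adjusted p threshold of 0.05 (0% of those tested; limma on log2(FPKM + 1), Benjamini-Hochberg adjustment), and the lowest adjusted p was 0.0624, for the predicted gene Gm5963. At an unadjusted p under 0.05 there were 1106 genes, 7.30% of those tested: 733 were higher at ZT15 (4.83%) and 373 lower (2.46%). Both ZT15 libraries were above both ZT9 libraries for 20.6% of the genes and below both for 11.5%; the mean was higher at ZT15 for 58.8% and lower for 41.2%, with a median log2 difference of 0.078, which was 0.016 after median-of-ratios scaling and -0.042 after quantile normalization. These percentages are the background for each count below. The excess of higher genes depended on the scaling: 66.3% of the genes at an unadjusted p under 0.05 were higher with FPKM as deposited, 44.6% after median-of-ratios scaling and 32.5% after quantile normalization. Without ZT15 replicate 2 the count at an unadjusted p under 0.05 was 536, without ZT15 replicate 1 it was 2762, and without ZT9 replicate 2 it was 2581. Since nothing passed the adjusted threshold, the genes below are described by their values, and log2 differences, on the log2(FPKM + 1) scale, understate the change of genes near 1 FPKM.

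Named genes leave out predicted genes, those averaging under 5 FPKM and those whose groups overlapped. Among those lower at ZT15, Nr1d1, the clock repressor, had the smallest p. It was at 67.8 and 51.5 FPKM in the ZT9 libraries and 3.47 and 9.11 in the ZT15 libraries, a log2 difference of -3.16 ± 0.48 (SE; adjusted p = 0.521, limma). The groups were far apart relative to their spread, which selection by smallest p favours. Tmigd1, an adhesion protein of the immunoglobulin superfamily, followed with 35.3 and 31.9 at ZT9 and 8.65 and 3.76 at ZT15 (-2.35 ± 0.41). Mzt2, a part of the gamma-tubulin ring complex, was 13.2 and 9.87 against 4.17 and 5.07, Rreb1, a zinc finger transcription factor that responds to Ras signalling, 14.8 and 21.1 against 8.70 and 7.48, and Adhfe1, a mitochondrial oxidoreductase, 25.9 and 22.9 against 13.3 and 11.3. Ranges that did not overlap were a condition for naming these genes and are not a result about them. Adjusted p for the 5 genes was 0.521 to 0.665.

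On the higher side, under the same conditions, the smallest p values belonged to genes of several kinds. Chordc1, a co-chaperone of Hsp90, was 12.5 and 15.04 FPKM at ZT9 and 29.2 and 37.0 at ZT15 (1.20 ± 0.20). Gpr155, a lysosomal membrane protein that senses cholesterol, was the most abundant, at 83.0 and 120 against 277 and 240 (1.36 ± 0.24). The libraries of a group were closer to each other than to any library of the other group in both genes, which selection by smallest p favours. Kcnk6, a background potassium channel, was 3.35 and 5.21 against 10.2 and 9.79, and the monocyte chemokine Ccl12 was 2.27 and 0.994 against 5.18 and 8.05. Ighv5-12, an immunoglobulin variable segment, was listed at 0 in both ZT9 libraries and at 19.4 and 24.9 at ZT15; reads of this segment family can be split among near-identical members, so its values are uncertain. Adjusted p for these 5 was 0.521 to 0.665.

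**Figure D2:**
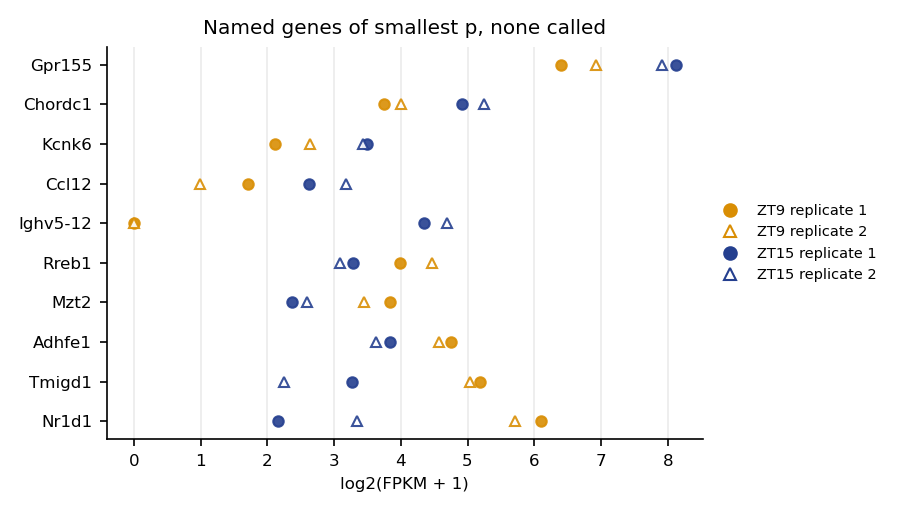
The 5 higher and 5 lower genes of smallest p, with log2(FPKM + 1) on the horizontal axis and 1 point per library. The 10 were picked from genes whose ZT9 points (orange) and ZT15 points (blue) do not overlap. Nr1d1 runs from 67.8 FPKM in ZT9 replicate 1 to 3.47 in ZT15 replicate 1.

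Among the clock genes, Nr1d1, Ciart and the PAR bZIP factor Dbp had higher values in late day, and Arntl, Clock and Cry1 had higher values at night. Of 19 core clock genes kept, 6 were higher and 7 lower at ZT15 without overlap between the groups, against 20.6% and 11.5% of all genes. At an unadjusted p under 0.05 were 3 and 3 of them, against 4.83% and 2.46% of all genes. The activators came first. Arntl was 0.803 and 0.855 FPKM at ZT9 and 3.44 and 2.59 at ZT15 (log2 difference 1.13 ± 0.29). Its partner Clock was 1.88 and 3.02 against 5.42 and 5.68 (0.94 ± 0.24). Npas2, which can replace Clock, was below 1 FPKM in all 4 libraries, with overlapping groups, and Arntl2, a paralog of Arntl, was 0.847 and 0.980 against 1.40 and 1.07.

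Among the nuclear receptors that act on Arntl, Rora, an activator, was 2.86 and 3.45 FPKM at ZT9 and 3.46 and 2.95 at ZT15, with overlapping groups. Nr1d2, the paralog of Nr1d1, was 47.3 and 55.0 against 30.7 and 40.2 (-0.53 ± 0.26), a narrower gap than that of Nr1d1, though the difference between the paralogs was not tested.

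The repressors differed in direction. Per1 was 24.7 and 21.2 FPKM at ZT9 and 18.3 and 15.3 at ZT15, and Per3 was 29.5 and 20.5 against 13.2 and 14.3 (-0.80 ± 0.38). Per2 was on the other side, at 4.72 and 8.89 against 10.5 and 12.6 (0.73 ± 0.33). None of the 3 Period genes had overlapping groups. Cry1 was 3.48 and 5.73 against 11.6 and 9.22 (1.05 ± 0.28), and Cry2 9.89 and 11.5 against 8.87 and 7.83 (-0.32 ± 0.29). Ciart, a repressor of the activator pair, had 3 E-boxes in the window shown above and was 14.6 and 5.91 against 0.900 and 2.09 (-2.10 ± 0.59). The E-box repressor Bhlhe41 was 7.94 and 5.48 against 2.57 and 3.71 (-0.89 ± 0.32), whereas its paralog Bhlhe40 was 42.5 and 33.5 against 32.1 and 34.0. Thus of the 4 core genes with an E-box in the window, Cry1 was higher at ZT15 and Per1, Ciart and Bhlhe41 were lower. The kinases Csnk1d and Csnk1e, which phosphorylate Period proteins, had log2 differences of 0.30 and 0.49, and Fbxl21, which ubiquitinates Cryptochromes, of -0.01.

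In the output arm, Dbp had the largest difference of any clock gene. It was 281 and 115 FPKM at ZT9 and 12.5 and 28.1 at ZT15, a log2 difference of -3.19 ± 0.68 (adjusted p = 0.665, limma). Both ZT9 libraries were far above both ZT15 libraries, although they also differed from each other. Nfil3, which opposes Dbp at D-boxes, ran the other way, at 7.44 and 6.77 against 29.5 and 10.7 (1.22 ± 0.41). Tef was 72.3 and 105 against 56.5 and 63.9, and Hlf 1.25 and 2.63 against 1.24 and 1.40, with differences of -0.53 and -0.30. Per3, whose window holds 2 D-boxes, was lower at ZT15, as given above; Timeless, the other core gene with a D-box, was 2.31 and 2.14 against 1.89 and 3.69.

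**Figure D3:**
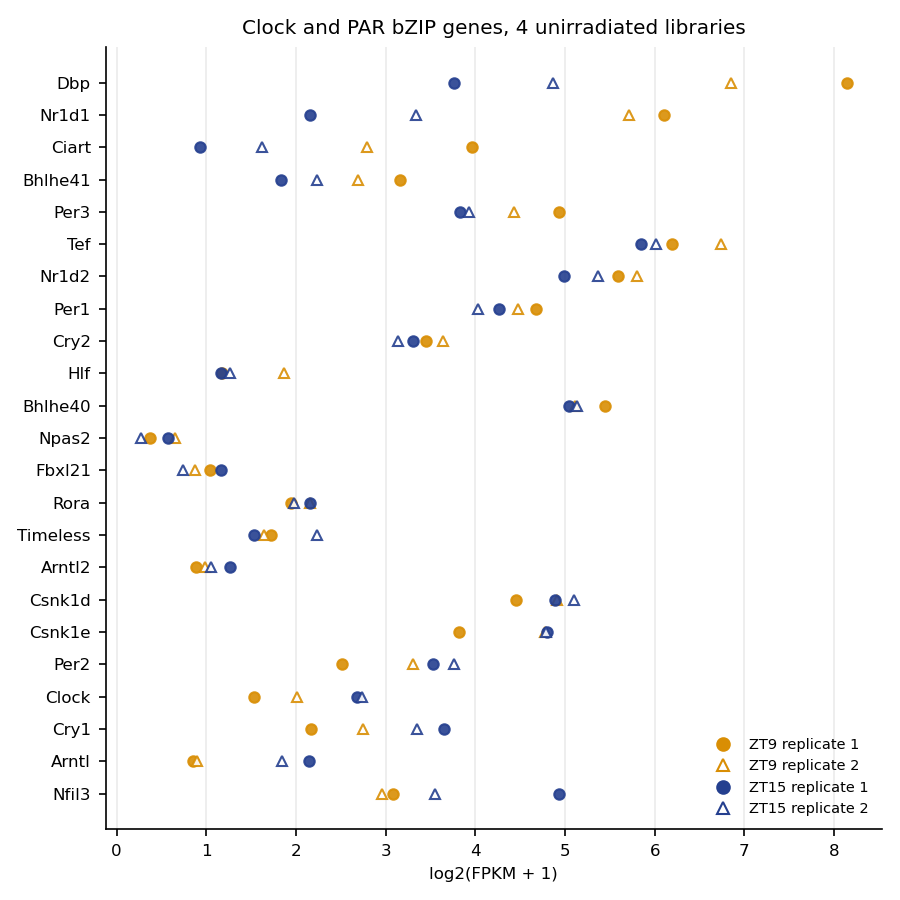
log2(FPKM + 1) of the 19 core clock and 4 PAR bZIP genes, 1 point per library, ordered by the ZT15 minus ZT9 difference. The top rows (Dbp, Nr1d1, Ciart) have both ZT15 points to the left of both ZT9 points and the bottom rows (Nfil3, Arntl, Cry1) to the right, while Npas2, Fbxl21 and Rora overlap.

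Since the immune and Y-linked transcripts were high in ZT15 replicate 2 alone, ZT15 replicate 1 was also set against ZT9 by itself. Of the 19 core clock genes, ZT15 replicate 1 was above both ZT9 libraries for 8 and below both for 9 (42.1% and 47.4%), against 34% and 22% of all genes. Nr1d1, Dbp and Ciart were lower in ZT15 replicate 1 than in replicate 2, and Nfil3, Arntl and Cry1 were higher, so these 6 lay farther from ZT9 in replicate 1. Clock, Per1, Per2 and Cry2 lay closer to ZT9 in replicate 1 than in replicate 2. No clock gene was called under any alternative run; the lowest adjusted p over these (limma, Benjamini-Hochberg) was 0.136 for Nr1d1 and 0.176 for Dbp.

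Genes known as rhythmic in many mouse tissues gave 36 kept members, which include Ciart of the core list and of which 22 were higher and 14 lower at ZT15, and 9 and 5 had groups that did not overlap. Their median log2 difference was 0.09, against 0.08 for all genes, of which 20.6% were higher and 11.5% lower without overlap. Fkbp5, a co-chaperone of the glucocorticoid receptor, was 8.45 and 8.91 FPKM at ZT9 and 23.2 and 37.5 at ZT15 (1.66 ± 0.32). Zbtb16, a zinc finger factor that responds to glucocorticoids, was 0.327 and 0.779 against 2.996 and 2.98 (1.38 ± 0.24). Fmo2, a flavin monooxygenase, was 10.9 and 22.5 against 32.6 and 32.4. Noct, the deadenylase-like nocturnin, was 6.20 and 7.38 against 10.3 and 13.2, and Usp2, a deubiquitinase, was 34.7 and 28.6 against 22.5 and 19.5. Apart from Ciart, given above, the other members ran from -1.05 for Pdk4 to 0.79 for Mtss1.

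Of 17 glucocorticoid-responsive genes, which include Fkbp5, Zbtb16 and Per1, 7 were higher and 2 lower without overlap. The shares over all genes were 20.6% and 11.5%, and the list median was 0.11. Sult1a1, a sulfotransferase, was 5.42 and 5.05 FPKM against 7.03 and 11.9. Tsc22d3 and Klf9, also induced by the hormone, were 18.4 and 19.5 against 19.9 and 21.1, and 22.3 and 26.0 against 24.8 and 17.4. So the members at the top of the list, Fkbp5 and Zbtb16, had log2 differences of 1.66 and 1.38, while those of Tsc22d3 and Klf9 were 0.11 and -0.20. The metallothionein Mt2 was 143 and 102 against 90.6 and 44.0.

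Of 22 immediate early genes, which are transcribed within minutes of a stimulus, 20 had a higher mean at ZT15. Without overlap, 8 were above ZT9, against 20.6% of all genes. At an unadjusted p under 0.05 were 4 of these, against 4.83% of all genes, and the list median was 0.43. Btg2, an antiproliferative factor, was 13.1 and 7.26 FPKM against 24.2 and 19.7 (1.08 ± 0.25), and Zfp36, which destabilises cytokine mRNAs, was 6.97 and 6.16 against 9.99 and 12.2. Fos was 1.35 and 1.43 against 5.21 and 2.04, Dusp1 10.1 and 4.82 against 30.4 and 9.37, and Atf3 3.31 and 3.28 against 1.91 and 2.13. Fos and Dusp1 were highest in ZT15 replicate 1, and Dusp1 overlapped between groups.

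The folding machinery of the ER had higher values at night in both ZT15 libraries. Of 23 kept genes, 20 had a higher mean at ZT15, 15 were above ZT9 without overlap, against 20.6% of all genes, and 10 were at an unadjusted p under 0.05 on the higher side (4.83% of all genes). The median log2 difference was 0.54, with 0.34 in ZT15 replicate 1 and 0.58 in replicate 2, and 0.34 without ZT9 replicate 1. With ZT15 replicate 1 alone 17 of 23 were above both ZT9 libraries, 73.9% against 34.0% of all genes. After median-of-ratios scaling 20 were higher and after quantile normalization 19.

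Hspa5 (BiP), the main Hsp70 of the ER, was 197 and 253 FPKM at ZT9 and 315 and 398 at ZT15 (0.66 ± 0.27). Hsp90b1, the Hsp90 of the ER, was 173 and 187 against 226 and 368, and Hyou1, which recharges BiP, 25.5 and 63.5 against 80.1 and 83.8. For these 3 chaperones both ZT15 libraries exceeded both ZT9 libraries. The lectin chaperone Canx was 75.1 and 92.9 against 118 and 126 (0.54 ± 0.14), and its soluble relative Calr 156 and 240 against 279 and 284. Edem1, which marks misfolded glycoproteins for disposal, was 25.6 and 31.4 against 46.2 and 66.0 (0.94 ± 0.24). The disulfide isomerases Pdia4 and Pdia6 were 30.0 and 29.9 against 42.2 and 69.6, and 89.7 and 89.8 against 124 and 153, but P4hb, the most abundant isomerase, was 502 and 640 against 696 and 517. Xbp1, a regulator of these genes, was 366 and 286 against 320 and 267, Derl3, a disposal channel protein, 233 and 284 against 236 and 200, and Herpud1, a stress-induced ER membrane protein, 387 and 333 against 247 and 265. Herpud1 was thus the member that was lower at ZT15 without overlap, and Xbp1 and Derl3 overlapped.

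The ER stress element, CCAAT and CCACG separated by 9 bases of any kind, was in the start windows of 8 of the 18 folding genes with an entry, against 0.178% of all expressed genes with a window and 0.119% of all windows. The 8 were Hspa5, Hsp90b1, Pdia6, Calr, Canx, Dnajc3, Creld2 and Derl3. All but Derl3 had a positive log2 difference, from 0.48 to 0.76, as did 20 of the 23 kept members of the list. The element is known from ER chaperone genes and the list is made of them, so the count describes the list and not the time of day. The windows of 5 of them are shown because they carry the same paired blocks before genes that were higher at night.
Hspa5 (chr2:34772005-34772063, plus strand): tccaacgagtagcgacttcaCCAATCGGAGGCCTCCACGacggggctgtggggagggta
Canx (chr11:50325780-50325838, minus strand): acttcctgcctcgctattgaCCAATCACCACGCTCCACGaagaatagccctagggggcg
Pdia6 (chr12:17266471-17266529, plus strand): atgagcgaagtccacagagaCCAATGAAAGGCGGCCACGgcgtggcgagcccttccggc
Dnajc3 (chr14:118937807-118937865, plus strand): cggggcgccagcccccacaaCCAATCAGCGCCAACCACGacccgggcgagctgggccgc
Creld2 (chr15:88819500-88819558, plus strand, element on the opposite strand): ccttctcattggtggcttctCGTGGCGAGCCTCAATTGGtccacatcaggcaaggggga

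Steps before and after folding were described by 3 further lists, beside 20.6% of all genes above ZT9 without overlap and 11.5% below. Of 25 genes of entry into the ER, 8 were above ZT9 without overlap and none below, with a median of 0.06; Stt3b, a catalytic subunit of the enzyme that adds N-glycans, was 27.6 and 32.7 FPKM against 38.6 and 49.5, and Ssr1, of the translocon, 19.8 and 30.3 against 33.8 and 34.6. Of 25 genes of vesicle traffic, 11 were above and none below, 4 at an unadjusted p under 0.05, with a median of 0.20. The coat protein genes Sec24d and Sec23b were 24.2 and 32.6 against 42.7 and 43.2, and 166 and 78.7 against 254 and 205. The cargo receptor Lman1 was 84.5 and 92.7 against 117 and 120. The traffic median was 0.25 in ZT15 replicate 1 and 0.02 in replicate 2, so the difference was wider in ZT15 replicate 1; in that library alone 20 of 25 were above both ZT9 libraries (80%, against 34% of all genes). Of 17 exocytosis genes, 3 were above and 1 below, the granule tether Sytl1 at 44.2 and 35.5 against 29.5 and 21.7.

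Some cytosolic chaperones of the heat shock response also had higher values at night. For comparison, 20.6% of all genes were above ZT9 without overlap and 11.5% below. Of 18 kept genes, 14 had a higher mean, 10 were above ZT9 without overlap, none was below, and 6 were at an unadjusted p under 0.05; the median was 0.27, with 0.26 and 0.32 in the ZT15 libraries. After median-of-ratios scaling 11 were higher and after quantile normalization 12. Besides Chordc1, Hspa8, the constitutive Hsp70, was 278 and 430 FPKM against 618 and 839 (1.06 ± 0.29), Hspa4l, a nucleotide exchange factor, 2.28 and 3.002 against 4.82 and 6.81, and the J-domain protein Dnajb1 4.82 and 5.10 against 7.61 and 8.81. Some other members overlapped between the groups. Hspa1a was 2.29 and 2.34 against 3.53 and 1.45, Hspa1b 6.94 and 7.64 against 12.1 and 5.91, and Hspb1 17.5 and 9.88 against 15.4 and 11.8. Of the 4 cold-inducible genes, Cirbp, an RNA-binding protein, was 75.7 and 49.7 against 44.2 and 40.7.

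A heat shock element, TTC, GAA and TTC each separated by 2 bases of any kind, was in the windows of 4 of 14 heat shock genes with an entry, against 0.601% of expressed genes and 0.603% of all windows. As with the ER element, this count describes the list. The element was present both in genes with a wide difference, Chordc1 and Hsph1, and in Hspe1 and Hspd1, which share 1 start region and had log2 differences of -0.14 and 0.03. The Hspe1 window and the site at the start of Chordc1 are given as such a pair.
Hspe1 (chr1:55088039-55088096, plus strand, overlapping elements): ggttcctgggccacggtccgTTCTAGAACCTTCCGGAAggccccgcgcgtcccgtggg
Chordc1 (chr9:18292255-18292283, plus strand, element on the opposite strand): tgcaaccgGAACGTTCGGGAAaattcctg

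Amino acid supply genes, which the factor Atf4 induces when translation is restrained, were lower at night. Of 25 kept genes of the integrated stress response, 24 had a lower mean at ZT15 (41.2% of all genes did), 11 were below ZT9 without overlap, against 11.5% of all genes, and 8 were at an unadjusted p under 0.05 on the lower side, against 2.46% of all genes. The median log2 difference was -0.48, with -0.50 and -0.51 in the ZT15 libraries. ZT9 replicate 1 carried much of it: without that library the median was -0.11, and without ZT9 replicate 2 it was -0.86. With ZT15 replicate 1 alone all 25 were lower than the ZT9 mean, and 16 were below both ZT9 libraries, against 22% of all genes. Median-of-ratios scaling left 24 lower and quantile normalization 25.

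The list holds 8 amino acid transporters, of which 5 were below ZT9 without overlap. Slc7a5, which imports large neutral amino acids, was 72.2 and 51.8 FPKM at ZT9 and 30.3 and 30.2 at ZT15 (-0.99 ± 0.20). Slc1a4, a transporter of neutral amino acids, was 11.7 and 8.29 against 4.17 and 4.01 (-1.09 ± 0.24), and the glycine transporter Slc6a9 24.4 and 18.7 against 11.2 and 12.7. In these 3 the ZT15 libraries were close to each other and below both ZT9 libraries, which choice by p or by seen values favours. Gpt2, which makes alanine from pyruvate, was 60.0 and 69.2 against 43.5 and 34.8 and was highest in ZT9 replicate 2. Several others were high in ZT9 replicate 1 alone: Trib3, a pseudokinase that limits Atf4, was 29.8 and 2.56 against 1.03 and 2.31, Chac1, which degrades glutathione, 36.5 and 5.40 against 1.15 and 9.79, and Nupr1, a stress-induced chromatin protein, 2075 and 341 against 719 and 501. Atf4 itself was 150 and 92.1 against 98.6 and 100, and Asns, asparagine synthetase, 392 and 219 against 212 and 196.

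The enzymes that charge tRNAs, many of which are also Atf4 targets, were on the same side. Of 20 kept, 16 had a lower mean and 10 were below ZT9 without overlap, against 11.5% of all genes. Among the 10, 6 were at an unadjusted p under 0.05. Above ZT9 were 3, against 20.6% of all genes. The median was -0.17, and -0.04 without ZT9 replicate 1. Gars, for glycine, was 95.9 and 61.2 FPKM against 47.1 and 45.8 (-0.71 ± 0.21), Aars, for alanine, 59.1 and 43.2 against 32.9 and 31.4 (-0.64 ± 0.18), and Lars, for leucine, 62.0 and 39.0 against 30.8 and 33.1. Wars, for tryptophan, was on the other side at 10.1 and 12.5 against 14.96 and 13.99. The ATF4 composite element, TGATGNAA, was in the windows of 7 of 22 stress response genes and 5 of 13 tRNA synthetase genes with an entry, against 2.86% of expressed genes and 3.97% of all windows. As with the ER element, the lists were drawn up from genes known as targets. All 12 had negative log2 differences, but so did most members of both lists, 24 of 25 and 16 of 20. The direction is thus not particular to genes with the element. The 4 windows printed are those of Aars, Vldlr and Asns, whose groups did not overlap, and of Nupr1, whose groups did. Aars, Asns and Nupr1 were all highest in ZT9 replicate 1.
Asns (chr6:7693210-7693252, minus strand): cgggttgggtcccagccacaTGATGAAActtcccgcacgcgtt
Aars (chr8:111033710-111033757, plus strand, element on the opposite strand): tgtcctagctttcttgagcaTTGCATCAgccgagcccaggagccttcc
Vldlr (chr19:27216800-27216847, plus strand, element on the opposite strand): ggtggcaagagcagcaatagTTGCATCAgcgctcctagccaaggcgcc
Nupr1 (chr7:126625553-126625600, minus strand, element on the opposite strand): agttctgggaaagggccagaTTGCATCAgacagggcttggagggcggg

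Genes that build ribosomes had higher values at night, while those of ribosomal proteins overlapped. The counts here stand beside 20.6% of all genes above ZT9 without overlap and 11.5% below. Of 25 ribosome biogenesis genes, 20 had a higher mean, 12 were above ZT9 without overlap and 1 below, and 5 were at an unadjusted p under 0.05; the median was 0.23, with 0.12 and 0.40 in the ZT15 libraries. Tsr1, a maturation factor of the small subunit, was 13.1 and 17.9 FPKM against 31.6 and 28.1 (0.91 ± 0.19). Gnl3, a nucleolar GTPase, was 25.3 and 27.3 against 34.5 and 41.0, and Polr1b, a subunit of RNA polymerase I, 6.998 and 7.54 against 9.92 and 10.4. Of 52 ribosomal protein genes none had groups that did not overlap in either direction, and none had an unadjusted p under 0.05; the median was -0.04. Without ZT9 replicate 1 that median was 0.24 and without ZT9 replicate 2 it was -0.32. Of 21 translation factors 4 were above and 2 below, with a median of -0.04, which was 0.11 and -0.14 without the same libraries.

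**Figure D4:**
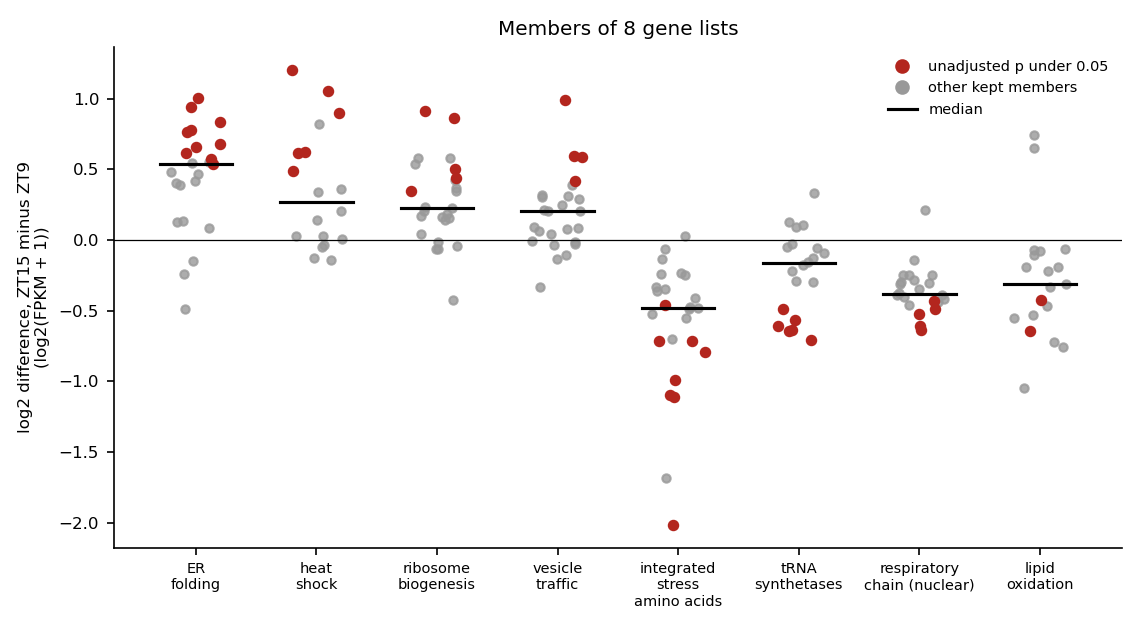
log2 difference (ZT15 minus ZT9) of each kept member of 8 gene lists, with 1 point per gene, red for an unadjusted p under 0.05, and a bar at the list median. ER folding sits highest, with a median of 0.54, and the integrated stress and amino acid list lowest, at -0.48; for the latter the median was -0.11 without ZT9 replicate 1.

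Nuclear-encoded genes of the respiratory chain were lower at night. Of 22 kept, 21 had a lower mean at ZT15, 15 were below ZT9 without overlap, against 11.5% of all genes, and 5 were at an unadjusted p under 0.05. The median was -0.38, with -0.20 in ZT15 replicate 1 and -0.53 in replicate 2. Cyc1, of complex III, was 156 and 159 FPKM against 118 and 86.4 (-0.64 ± 0.20), and Sdhb, of complex II, 224 and 217 against 175 and 119 (-0.61 ± 0.21). In both genes ZT15 replicate 2 was the lowest library. Ndufa1, of complex I, was the member with a higher mean, at 178 and 185 against 218 and 203. The 13 transcripts of the mitochondrial genome had medians of 0.02 in ZT15 replicate 1 and -0.62 in replicate 2; mt-Nd1 was 4102 and 3821 against 3639 and 1997. ZT15 replicate 2 held the immune and parotid transcripts described above, whose part in this difference was not tested; with replicate 1 alone 15 of the 22 nuclear genes were below both ZT9 libraries, against 22% of all genes. In bulk tissue, fewer cells of a type and less RNA per cell cannot be told apart.

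Genes of fatty acid oxidation mostly had lower means at night and those of glycolysis mostly higher, and each list median shrank without 1 ZT9 library. Over all genes, 20.6% were above ZT9 without overlap and 11.5% below. Of 19 genes of fatty acid oxidation, 17 had a lower mean, but 4 were below ZT9 without overlap; the mitochondrial trifunctional subunits Hadha and Hadhb were 73.9 and 87.6 FPKM against 65.0 and 54.8, and 63.6 and 104 against 63.5 and 42.1. The list median was -0.31, and -0.05 without ZT9 replicate 2, the library with the highest adipocyte sum; the part of adipose tissue was not tested. Of 17 glycolysis genes 8 were above ZT9 without overlap and 2 below, with a median of 0.27, and 0.03 without ZT9 replicate 1. Ldha, lactate dehydrogenase, was 105 and 119 against 180 and 176.

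**Figure D5:**
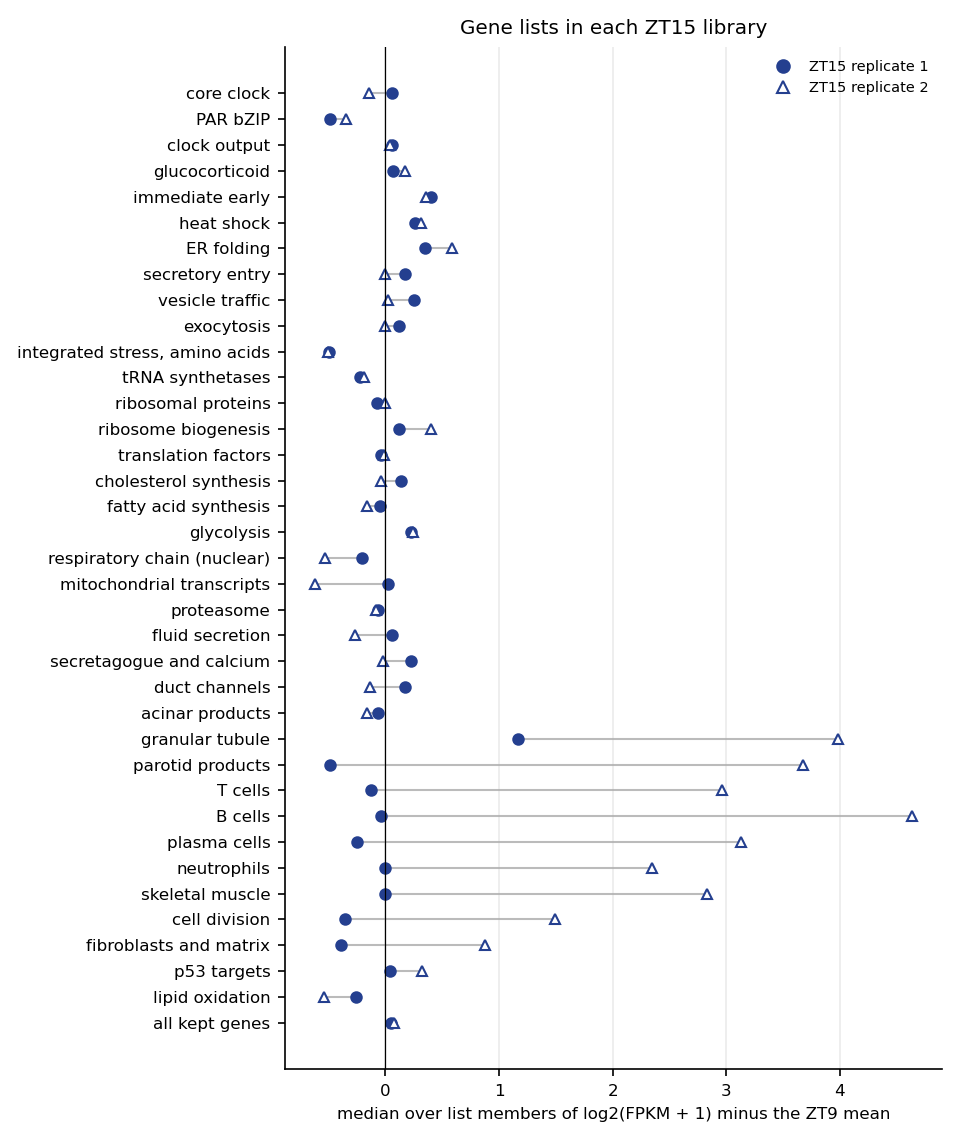
Median over the kept members of each list of log2(FPKM + 1) minus the ZT9 mean, for ZT15 replicate 1 (filled circles) and replicate 2 (open triangles). ER folding, heat shock, integrated stress and tRNA synthetase medians lie on the same side of 0 in both libraries, while B cell, T cell, neutrophil, muscle and parotid medians are near or below 0 in replicate 1 and between 2.35 and 4.64 in replicate 2.

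Secretion itself was described by genes of fluid, of control and of product. The shares of all genes without overlap were 20.6% above ZT9 and 11.5% below. Of 19 fluid secretion genes 5 were above and 3 below ZT9 without overlap, with a median of -0.01. Slc4a2, a chloride-bicarbonate exchanger, was 13.4 and 13.9 FPKM against 16.9 and 18.3, and Wnk1, a kinase that sets chloride transport, 23.6 and 23.0 against 26.8 and 32.4. The acinar water channel Aqp5 was 541 and 335 against 410 and 219, and the calcium-gated chloride channel Ano1 58.8 and 77.8 against 57.0 and 56.1. Of 25 genes of secretagogue and calcium signalling 4 were above and 1 below. Orai1, the store-operated calcium channel, was 3.11 and 3.62 against 7.52 and 6.42 (0.87 ± 0.23), and the calcium pump Atp2b1 9.23 and 13.5 against 16.3 and 19.7. P2rx7, an ATP-gated channel, was 19.3 and 13.1 against 10.6 and 10.2. The muscarinic receptor Chrm3, the main drive of saliva, was 9.78 and 13.5 against 14.1 and 7.23, with overlap.

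Among 22 acinar products, 7 were below ZT9 without overlap and 1 above, against 11.5% and 20.6% of all genes, and the median was 0.03. Pigr, which carries IgA into saliva, was 176 and 136 FPKM against 79.3 and 34.2 (-1.55 ± 0.52). Pip, prolactin-induced protein, was 42875 and 42517 against 54334 and 53177, and Scgb1b27 was 288885 and 227705 against 211576 and 111503. The Pip groups were close within and apart between, but Pip was chosen after its values were seen. Muc19 and the Dcpp genes, low in ZT9 replicate 2, belong here, and their fitted differences depended on that library. When ZT9 replicate 1 was left out, the log2 differences were 4.49 for Dcpp1, 11.6 for Dcpp2, 9.53 for Dcpp3 and 10.0 for Muc19. A2ml1, which is not in the list, had 12.2. A2ml1 was 5481 and 0.0213 FPKM at ZT9 and 6283 and 3620 at ZT15, so ZT9 replicate 1 stood with the ZT15 libraries.

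Granular convoluted tubule products, growth factors and kallikreins that are more abundant in male mice, had the largest list median, 2.37. Of 23 kept, 15 were above ZT9 without overlap, against 20.6% of all genes, but none was at an unadjusted p under 0.05. The medians were 1.16 in ZT15 replicate 1 and 3.98 in replicate 2, the library with Y-linked transcripts; the part of sex in this difference was not tested. With ZT15 replicate 1 alone, whose Y-linked genes were at 0 as in both ZT9 libraries, 19 of 23 were above both, against 34% of all genes. Egf, epidermal growth factor, was 79.6 and 117 FPKM at ZT9 and 162 and 2362 at ZT15. Klk1b21, a kallikrein, was 20.1 and 58.2 against 149 and 1215, and Klk1, the tissue kallikrein, 24004 and 31512 against 37677 and 12016. The kallikrein genes are near-identical copies, and reads can be split among them.

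Duct genes differed little, set beside 20.6% of all genes above ZT9 without overlap and 11.5% below. Of 15 duct markers 1 was above and 2 below, Ehf, an epithelial transcription factor, at 75.1 and 91.1 FPKM against 121 and 108, and Ascl3, a factor of ionocytes and progenitors, at 33.8 and 30.0 against 21.3 and 9.45. Of 19 duct channel genes 3 were above and 1 below. Of 28 cell division genes 27 had a higher mean, yet the median was -0.36 in ZT15 replicate 1 and 1.49 in replicate 2; Mki67 was 2.58 and 1.28 against 1.11 and 14.2. The fibroblast and matrix list had medians of -0.39 and 0.87, with Col1a1 at 14.2 and 16.6 against 8.89 and 54.2. Both lists were thus high in ZT15 replicate 2 alone, as the B cell markers were; the part of other tissue in them was not tested.

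The CUT&Tag lists give positions of summits in the gland without a collection time or a control in the labels. They describe where summits were listed and do not bear on the difference between times. Of 20 clock and PAR bZIP genes with a start in the table, 13 had a Bmal1 summit within 1 kb of a start in both lists (65.0%, 95% exact interval 40.8% to 84.6%, counting error only), 9 an Nr1d1 summit (45.0%) and 12 a Dbp summit (60.0%). Among all expressed genes with a start the shares were 24.1%, 10.9% and 24.5%, and among the 811 with an unadjusted p under 0.05 they were 29.2%, 15% and 30.1%. The clock list was chosen and holds known targets of these proteins, so its shares and the interval describe the list. With a summit in at least 1 list of a target the clock genes no longer stood apart: the share was 75.0% for each target, against 69.5%, 72.9% and 73.8% of all expressed genes. The lists of a target differed in length, from 31014 and 19746 summits for Bmal1 to 9627 and 38363 for Nr1d1 and 49295 and 10352 for Dbp. Lists of different targets could also resemble each other. In the longer lists of Bmal1, Nr1d1 and Dbp, the summit nearest a start of Tsr1 was at 26, 26 and 23 bases. In the shorter lists it was at 27820, 27553 and 28040 bases. Whether a summit was particular to its target was not tested. Nr1d1 itself had summits of all 3 targets at 8 to 92 bases from a start in all 6 lists. Ciart had them at 23 to 550 bases, Dbp at 211 to 432, Arntl at 110 to 261, Per1 at 100 to 182 and Per3 at 128 to 257. Gpr155 also had all 6, at 127 to 274 bases, and Tmigd1 at 853 to 962. Rreb1 had a Bmal1 summit 43 bases from a start in 1 of the 2 Bmal1 lists and none within 1 kb in the other 5 lists, and Ccl12 had none within 1 kb in any list.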

How the data were processed

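The RNA-seq data were 10 libraries of mouse submandibular gland (5 groups of 2 libraries), and CUT&Tag gave 6 summit lists (3 targets, 2 lists each). The authors deposited FPKM per gene, and a position and a score per CUT&Tag summit; per the labels, RNA was extracted with Trizol and mRNA libraries were sequenced. The submitters' processing notes name Bowtie2, HISAT2, SAMtools, Cufflinks and the mm10 build, without role or version; no peak caller is named there, and the deposited scores were left unused. FPKM keeps no read total, so depth is unknown and no count model was used.

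The libraries were joined on gene symbol, dropping 217 entries of 107 repeated symbols from 55398. Genes with at least 1 FPKM in at least 2 of the 10 libraries (15161) were kept, and limma 3.58.1 (R 4.3.3, with trend) was fitted to log2(FPKM + 1) of all 10 libraries with 1 mean per group and 5 residual degrees of freedom. ZT15 minus ZT9 was tested two-sided, with Benjamini-Hochberg adjustment over all kept genes; the code was tested on simulated data. An exact permutation test of 2 libraries against 2 cannot give a two-sided p below 0.333. No gene was called, so the genes named were the 5 of smallest p in each direction whose groups did not overlap and whose higher group averaged at least 5 FPKM (predicted genes left out), the core clock, PAR bZIP and clock output genes, and the 2 of smallest p of each other list; further list members were chosen after their values were seen, and a few genes are not reported here and were left out of the lists. The comparison and the 53 gene lists were chosen with earlier results of these data known. Summits were matched to RefSeq starts (GRCm38.p6, the assembly of mm10) within 1 kb in both lists of a target. The alternatives tried were another pseudocount, other filters, median-of-ratios and quantile scaling, fewer libraries, limma without trend, the replicate block, terms for Y-linked and Amy1 levels, leaving out each library, a 5 kb window and a summit in at least 1 list. Same-numbered ZT9 and ZT15 libraries did not deviate together (r = -0.03), so they were not treated as pairs.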

Additional observations from a re-analysis of the deposited data

How the results depend on the processing

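With FPKM as deposited and all 10 libraries, 0 genes were called and 1106 were at an unadjusted p under 0.05. An adjusted p under 0.05 (limma, Benjamini-Hochberg) was reached by 1 gene, higher at ZT15, with a pseudocount of 0.1, by 10 (7 higher, 3 lower) without the filter on low values, by 1 lower gene in the 6 unirradiated libraries, and by 1 in limma without trend. All but Tcte3 were predicted genes or pseudogenes, and Tcte3 stayed under 0.5 FPKM. Leaving out 1 library gave 0 to 13 called genes (0 to 13 higher, 0 lower). The count at an unadjusted p under 0.05 was 728 at a mean of at least 5 FPKM, 354 in the 4 compared libraries alone, 621 in the 6 unirradiated libraries, 604 with Y-linked transcripts as a term, 657 with Amy1 as a term, and 536 to 2762 without 1 library. Higher genes numbered 461 at that mean, 476 after median-of-ratios scaling, 328 after quantile normalization, 237 in 4 libraries, 400 in 6, 387 with the Y-linked term, 442 with the Amy1 term and 367 to 1937 without 1 library. Lower genes numbered 600 without the filter, 591 and 682 after the respective scalings, 117 in 4 libraries, 221 in 6, 217 and 215 with the terms, and 169 to 1051 without 1 library. The replicate block, whose numbers do not pair the samples, gave 0 called genes and 1375 at an unadjusted p under 0.05.

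Median log2 differences of lists moved with scaling: core clock to -0.17, clock output to -0.0011, glucocorticoid to 0.021, heat shock to 0.20, cholesterol synthesis to -0.068, p53 targets to 0.030 and insulin signalling to 0.043 after quantile normalization, and glucocorticoid to 0.035, heat shock to 0.20 and exocytosis to -0.047 after median-of-ratios scaling. The neutrophil median was 2.51 with a pseudocount of 0.1, and 75.0% of the clock genes had an Nr1d1 summit in at least 1 list, against 72.9% of all expressed genes. Leaving out 1 library gave medians of -0.15 to 0.057 for core clock, -0.72 to -0.11 for PAR bZIP, 0.0072 to 0.17 for clock output, 0.064 to 0.17 for glucocorticoid, 0.24 to 0.47 for immediate early, -0.26 to 0.055 for cold-inducible, 0.34 to 0.73 for ER folding, -0.0066 to 0.17 for ER entry, 0.022 to 0.25 for vesicle traffic, -0.054 to 0.13 for exocytosis, -0.86 to -0.11 for integrated stress, -0.29 to -0.037 for tRNA synthetase, -0.32 to 0.24 for ribosomal protein, -0.14 to 0.11 for translation factor and 0.12 to 0.40 for ribosome biogenesis genes. For metabolism the ranges were -0.59 to 0.31 for fatty acid synthesis, 0.032 to 0.47 for glycolysis, -0.53 to -0.20 for the respiratory chain, -0.62 to 0.020 for mitochondrial transcripts, -0.25 to 0.087 for the proteasome, -0.35 to 0.095 for antioxidant, -0.55 to -0.055 for lipid oxidation and 0.083 to 0.45 for insulin signalling genes. For gland genes they were -0.27 to 0.062 for fluid secretion, -0.18 to 0.32 for secretagogue signalling, -0.66 to 0.11 for acinar products, 1.16 to 3.98 for granular tubule, -0.40 to 0.034 for duct, -0.48 to 0.14 for myoepithelial, -0.49 to 3.67 for parotid and -0.80 to 0.37 for sublingual genes. For other cells they were -0.13 to 2.96 for T cells, -0.042 to 4.64 for B cells, -0.25 to 3.13 for plasma cells, 0.058 to 0.36 for macrophages, 0 to 2.35 for neutrophils, 0.051 to 0.51 for cytokines, 0.035 to 0.32 for p53 targets, -0.39 to 0.87 for fibroblasts, -0.16 to 0.38 for endothelium, 0 to 2.83 for muscle and 0 to 3.93 for Y-linked genes.

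Of 32 genes tested by name, 27 kept their direction under every alternative run and 0 were called under any. The kept direction was partly fixed in advance. Genes named because their groups did not overlap cannot turn when 1 library is left out. Fits on fewer groups, limma without trend and the replicate block leave the difference of the group means unchanged. The other 5 were small differences that turned. Npas2 was 0.049 with the Y-linked term and 0.044 and 0.057 without ZT9 or ZT15 replicate 2, and down to -0.25 without another. Rora was -0.039 and -0.16 after the scalings, -0.083 and -0.068 without ZT9 or ZT15 replicate 1 and at most 0.12 without the others. Fbxl21 was 0.14 with the Y-linked term, 0.11 with the Amy1 term, 0.079 without ZT9 replicate 1, 0.20 without ZT15 replicate 2 and down to -0.22 without another. Timeless ran from -0.15 without ZT15 replicate 2 to 0.54 without ZT15 replicate 1, and Hlf from -0.65 without ZT9 replicate 1 to 0.042 without ZT9 replicate 2. The cause was not tested for any of these. Reads behind each FPKM are unknown, so low genes such as Npas2 and Arntl have no counting interval.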

Other observations

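Further gene groups were mostly mixed between the times, and none of their genes was called (limma, Benjamini-Hochberg). Of 25 antioxidant and detoxification genes, 6 were above ZT9 without overlap and 2 below, against 20.6% and 11.5% of all genes. Gclc, the rate-limiting enzyme of glutathione synthesis, was 8.47 and 6.98 FPKM at ZT9 and 16.9 and 16.5 at ZT15 (log2 difference 1.02 ± 0.24, SE), and Aldh1a1, which makes retinoic acid, was 33.7 and 32.7 against 53.9 and 45.2. Gstm2, a glutathione transferase, was 71.9 and 60.3 against 53.4 and 32.3. Of 23 insulin and growth signalling genes, 6 were above and 1 below, beside the same shares of all genes. Irs2, an adaptor of the insulin receptor, was 2.81 and 2.21 against 4.14 and 3.94, and Igfbp3, which binds insulin-like growth factors, 5.65 and 5.67 against 9.10 and 9.23. Txnip, which limits glucose uptake, was 158 and 177 against 120 and 101.

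Of 25 p53 targets in these unirradiated glands, 8 were above ZT9 without overlap and 4 below. The shares of all genes, 20.6% and 11.5%, stand beside this and the next counts. Mdm2, which degrades p53, was 11.5 and 13.8 FPKM against 16.8 and 23.0, while the apoptosis gene Bbc3 was 4.92 and 4.83 against 3.18 and 3.04 and Phlda3, an inhibitor of Akt, 10.7 and 11.0 against 7.62 and 7.71. The groups were apart in all 3 genes, which were chosen by p or after their values were seen. Of 18 nuclear receptor and thyroid hormone genes, 2 were above and 4 below: the thyroid hormone receptor Thra was 17.8 and 22.4 against 14.5 and 11.6, and the orphan receptor Esrrg 15.1 and 26.0 against 43.9 and 33.2. Of 23 cholesterol synthesis genes, 2 were above and 2 below, and Fdft1, squalene synthase, was 23.2 and 16.1 against 12.4 and 9.55. Ucp1, the uncoupling protein of brown fat, was 26.8 in ZT9 replicate 2, 2.64 in ZT15 replicate 1 and at most 0.0594 in the remaining libraries.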
